A study of Mus musculus with 6 samples.

Results

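Prostaglandin synthesis genes were examined in primary mouse keratinocytes with and without iASPP, the protein encoded by Ppp1r13l. The members were 9 genes chosen by symbol, of the 55367 genes counted: the phospholipase Pla2g4a, the cyclooxygenases Ptgs1 and Ptgs2, the prostaglandin E synthases Ptges, Ptges2 and Ptges3, the degrading enzyme Hpgd and the receptors Ptger2 and Ptger4. RNA was sequenced from 6 cultures of keratinocytes isolated from skin of newborn pups on a mixed C57BL/6 and 129/Sv background. All 6 carried the same genotype, Ppp1r13l flox/flox;Cre+ERT, with a tamoxifen-inducible Cre at a locus active in nearly every cell type, so that deletion was not limited to keratinocytes. The 3 iASPP-KO cultures received tamoxifen when the medium was changed at 24 h, and the 3 iASPP-WT cultures received medium without it, so the effect of tamoxifen itself and that of the deletion cannot be told apart. Each of 3 batches named in the labels held 1 iASPP-KO and 1 iASPP-WT culture. All cultures grew in low-calcium medium on collagen; per the methods of the study this medium also held hydrocortisone, a glucocorticoid, together with insulin, epidermal growth factor and cholera toxin. The labels do not say whether the batches came from separate animals, and p-values here measure the spread between these cultures.

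The iASPP-KO libraries of batches 1, 2 and 3 held 24544822, 23556669 and 22136525 counted reads, and the iASPP-WT libraries 21353368, 25157117 and 20202517. A floor of 3 counts corresponded to 0.123 to 0.141 counts per 1000000 counted reads (CPM) in these libraries, counting error only. Ppp1r13l, the targeted gene, had 320, 395 and 139 counts in iASPP-KO and 697, 1100 and 472 in iASPP-WT. Every iASPP-KO library was below its batch partner, with a log2 fold change of -1.45 ± 0.18 (SE, 3 pairs; edgeR adjusted p = 0.00296). Counts of Ppp1r13l covered all of its exons, the undeleted ones included.

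Prostaglandins are lipid mediators made from arachidonic acid. A cytosolic phospholipase releases the fatty acid from membranes, a cyclooxygenase turns it into an unstable intermediate, and terminal synthases convert this to prostaglandin E, which acts on cell surface receptors and is inactivated by a dehydrogenase. In skin, prostaglandin E made by keratinocytes takes part in inflammation, in the response to injury and in papilloma growth.

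Of the 9 members, 8 had enough counts to be tested and Ptger2 did not. Ptges and Hpgd rose in iASPP-KO, 2 of 8 tested members, against 2.17% of the 14916 genes tested that were called higher at an adjusted p under 0.05 (edgeR). DESeq2, a second count model, also called 2 members higher, Ptges and Ptgs1 but not Hpgd, where it called 3.91% of its tested genes. None of the 8 was called lower by edgeR, where 1.95% of all tested genes were, and none by DESeq2, which called 3.31% lower. At an unadjusted p under 0.05 in edgeR, 3 members were higher and 0 lower, against 8.66% and 8.09% of all tested genes. The median log2 fold change of the 8 was 0.24, against 0.01 over all tested genes. Values were above those of the batch partner in all 3 batches for 4 members (19.5% of all tested genes) and below in all 3 for 2 members (19.7%). Ptgs2, the member with the highest level, was not among those called.

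The promoters of Ptgs2, the most abundant member, and of Ptges and Hpgd, the members that rose, are shown so that the genes that changed can be read beside one that did not pass the test. They come from RefSeq (GRCm38.p6), run from 250 bases before the annotated start to 50 bases after it, and are written 5′ to 3′ on the gene's strand. All 9 members had an entry, Pla2g4a with 2 starts. Capitals mark matches on either strand to the motifs searched.
Ptgs2, chr1:150099781-150100080, plus strand: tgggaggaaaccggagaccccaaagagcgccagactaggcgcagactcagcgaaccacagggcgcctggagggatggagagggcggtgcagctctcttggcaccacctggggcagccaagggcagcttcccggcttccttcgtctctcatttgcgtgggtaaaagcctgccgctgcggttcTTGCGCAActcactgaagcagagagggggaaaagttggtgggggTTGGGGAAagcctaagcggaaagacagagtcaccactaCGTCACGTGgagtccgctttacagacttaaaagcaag
Ptges, chr2:30903248-30903547, minus strand: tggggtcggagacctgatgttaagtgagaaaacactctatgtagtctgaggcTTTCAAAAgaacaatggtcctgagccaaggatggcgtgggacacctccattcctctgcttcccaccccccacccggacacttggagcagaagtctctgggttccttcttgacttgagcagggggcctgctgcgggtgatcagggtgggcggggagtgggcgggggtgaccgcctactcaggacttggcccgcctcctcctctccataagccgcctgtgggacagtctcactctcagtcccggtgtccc
Hpgd, chr8:56294302-56294601, plus strand: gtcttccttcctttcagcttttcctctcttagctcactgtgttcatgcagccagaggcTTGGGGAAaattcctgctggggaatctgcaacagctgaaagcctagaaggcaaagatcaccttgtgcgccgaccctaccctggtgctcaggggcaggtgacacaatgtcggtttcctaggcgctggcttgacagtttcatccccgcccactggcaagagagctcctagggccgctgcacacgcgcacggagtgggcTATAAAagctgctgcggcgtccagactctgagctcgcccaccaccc

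The capitals in the Ptgs2 window are 2 matches to the C/EBP motif TTNNGNAA, at positions -69 to -62 and -25 to -18 from the start, and a run after the start where the CRE core TGACG (read on the opposite strand, positions 14 to 18) and the E-box CACGTG (17 to 22) overlap. Ptges held 1 match, to TTNNGNAA at -198 to -191. Hpgd held TTNNGNAA at -192 to -185 and the TATA box TATAAA at positions 5 to 10. Positions count from the RefSeq start, which for Ptgs2 is also that of the counted gene. For Hpgd it lies 33 bases upstream of the start of the counted gene, from which the TATAAA match is at -29 to -24, and for Ptges 26566 bases downstream of the outermost start counted. Among the promoters of the 9 members, 6 genes held TTNNGNAA, 2 the CRE core, 2 the E-box, 2 TATAAA and 1 the NF-kB motif, which was in Ptges3. Of 32841 promoters of the same length, 40.7%, 20.8%, 7.15%, 13.6% and 8.46% held these motifs. The AP1 motif TGANTCA and the full CRE TGACGTCA were in 7.81% and 1.79% of all promoters and in none of the members' windows. A match describes letters in these windows and no more.

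Pla2g4a, which encodes the cytosolic phospholipase that releases arachidonic acid, lies on the minus strand at chr1:149829618-149961290 (mm10). In batches 1, 2 and 3 its iASPP-KO counts were 1790, 3254 and 1643 and its iASPP-WT counts 1302, 3482 and 1610. Both batch 2 cultures were high and the groups overlapped. The log2 fold change was 0.13 ± 0.13 (SE, 3 pairs; edgeR adjusted p = 0.703), with a 95% interval of -0.15 to 0.40. Pla2g4a and Ptgs2 are near neighbours, with 138740 bases and 3 other annotated genes between them, 1 of which was tested.

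Ptgs2, the inducible cyclooxygenase, lies on the plus strand at chr1:150100031-150108227. Its counts were 8936, 18066 and 4683 in iASPP-KO and 8325, 16498 and 5111 in iASPP-WT. Batch 2 was highest and batch 3 lowest in both groups, and the groups overlapped almost completely. As RPKM, the CPM divided by the annotated exon length in kilobases, the mean level was 102.5 ± 68.2 in iASPP-KO against 94.2 ± 49.6 in iASPP-WT (SD, 3 cultures each). The difference between batch means, 3.49-fold from lowest to highest in CPM, was far larger than that between the groups, a log2 fold change of 0.03 ± 0.12 (SE, 3 pairs; edgeR adjusted p = 0.931). The 95% interval of the fold was 0.85 to 1.23, so a change of the size seen for Ptges lay outside it.

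Ptgs1 encodes the cyclooxygenase that many cells make without a stimulus, and lies on the plus strand at chr2:36230426-36252272. It had 1131, 1635 and 574 counts in iASPP-KO and 406, 851 and 535 in iASPP-WT. The iASPP-KO cultures of batches 1 and 2 were well above their partners, the 2 cultures of batch 3 were alike, and the groups overlapped. Within batches the log2 differences were 1.40, 1.07 and 0.03. The fitted log2 fold change of 0.84 ± 0.23 (SE, 3 pairs) did not pass the threshold (edgeR adjusted p = 0.0767). Ptgs1 did pass it with DESeq2 (adjusted p = 0.0127), a model that called 3.91% of the 12291 genes it tested higher, and in edgeR without batch 3 (log2 fold change 1.23, adjusted p = 4.02e-12), a fit with 1 residual degree of freedom. It did not pass without batch 1 (log2 fold change 0.57, edgeR adjusted p = 0.346), without batch 2 (0.72, 0.331) or with DESeq2 under a local dispersion trend (adjusted p = 0.168). Over 11 alternative settings its adjusted p ran from 4.02e-12 to 0.973, and 3 of the 11 called it. Besides the 2 named above, edgeR with a filter of at least 1 count in any library did so (log2 fold change 0.85, adjusted p = 3.26e-05).

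Ptgs2 made up most of the cyclooxygenase RNA per length in every library. Its RPKM was 6.70, 9.37 and 6.92 times that of Ptgs1 in the iASPP-KO cultures and 17.4, 16.4 and 8.10 times in the iASPP-WT cultures. This ratio was lower in iASPP-KO in all 3 batches, by least in batch 3, and an exact two-sided sign-flip test over 3 pairs gave p = 0.25, the smallest it can give. The Ptgs2 share of the summed RPKM of both genes was 88.2% ± 1.84 in iASPP-KO against 92.6% ± 3.12 in iASPP-WT (SD, 3 cultures each).

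**Figure D1:**
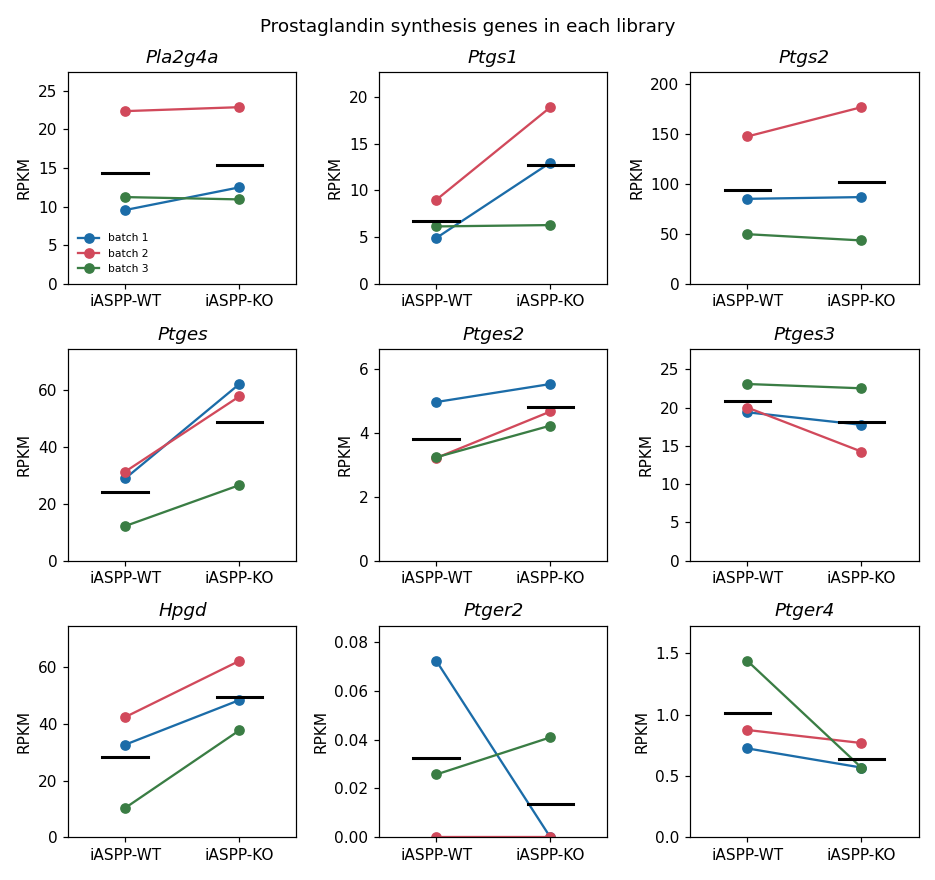
Levels of the 9 members in RPKM (vertical axes, each from 0) in iASPP-WT and iASPP-KO cultures; points are libraries, lines join the cultures of a batch and black bars are group means. The lines of Ptges and Hpgd slope upward in every batch, those of Ptgs1 mainly in batches 1 and 2, and Ptgs2 differs more between batches than between groups.

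Ptges encodes the inducible, membrane-bound prostaglandin E synthase, which works largely with Ptgs2, and lies on the minus strand at chr2:30889471-30929863. It had 5480, 5057 and 2455 counts in iASPP-KO and 2424, 2999 and 1072 in iASPP-WT. Batch 3 was lowest in both groups, so the ranges of the groups overlapped, but each iASPP-KO culture was about as far above its partner as the others, with log2 differences of 1.10, 0.88 and 1.13. Mean RPKM was 48.8 ± 19.4 in iASPP-KO against 24.1 ± 10.4 in iASPP-WT (SD, 3 cultures each). The fit gave a 2.05-fold higher level in iASPP-KO (95% interval 1.72 to 2.45; log2 fold change 1.04 ± 0.11 SE, edgeR adjusted p = 0.00155, higher in 3 of 3 pairs). By unadjusted p, Ptges stood at rank 33 of the 14916 genes tested. It passed the threshold in 10 of 11 alternatives, the exception being the fit without batch as a block (edgeR adjusted p = 0.973), in which no gene was called; the range over the alternatives was 2.61e-23 to 0.973.

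Ptges2 encodes a second membrane-associated enzyme of this class and lies on the plus strand at chr2:32395896-32405772. It had 504 to 629 counts in iASPP-KO and 368 to 537 in iASPP-WT, above the partner in 3 of 3 batches with overlapping groups. Its log2 fold change was 0.36 ± 0.17 (SE, 3 pairs; edgeR adjusted p = 0.325).

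Ptges3 lies on the plus strand at chr10:128058954-128077272 and encodes p23, a cochaperone of HSP90 that also has prostaglandin E synthase activity. It had 704 to 1176 counts in iASPP-KO and 918 to 1150 in iASPP-WT, below the partner in CPM in 3 of 3 batches. The log2 fold change of -0.22 ± 0.14 (SE, 3 pairs) did not pass the threshold (edgeR adjusted p = 0.525). Its value is less certain than the others, since 22.6% of the 42-base windows of its longest transcript also occur in transcripts of the annotated copies Ptges3-ps and Gm11893. For the other members this share was 0.45% in Ptges2 and 0 elsewhere, and no member shared exon bases with another gene on its strand.

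Ptges held a larger share of the synthase RNA per length in each iASPP-KO culture than in its batch partner. Of the summed RPKM of the 3 synthases it held 72.7%, 75.3% and 49.8% in the iASPP-KO cultures and 54.2%, 57.4% and 31.6% in iASPP-WT. Ptges3 held 27.2% ± 13.1 in iASPP-KO against 44.4% ± 13.5 in iASPP-WT (SD, 3 cultures each), and Ptges2 the remainder. The RPKM of Ptges relative to Ptgs2 was 0.714, 0.326 and 0.611 in iASPP-KO and 0.339, 0.212 and 0.244 in iASPP-WT. It was higher in iASPP-KO in 3 of 3 pairs, with a mean log2 change of 1.01 ± 0.35 (SD, n = 3 pairs; exact two-sided sign-flip p = 0.25, the smallest 3 pairs can give).

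Hpgd encodes the dehydrogenase that starts the inactivation of prostaglandin E, and lies on the plus strand at chr8:56294585-56321043. It had 1828, 2332 and 1494 counts in iASPP-KO and 1174, 1740 and 393 in iASPP-WT. The iASPP-WT culture of batch 3 was far below the other 5, the remaining values lay closer together, and the groups overlapped. Within batches the log2 differences were 0.57, 0.55 and 1.85. Mean RPKM was 49.4 ± 12.3 in iASPP-KO against 28.5 ± 16.4 in iASPP-WT (SD, 3 cultures each), a fitted 1.96-fold difference (95% interval 1.38 to 2.79; log2 fold change 0.97 ± 0.23 SE, edgeR adjusted p = 0.0431, higher in 3 of 3 pairs).

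The size of the Hpgd change rested partly on batch 3. Without that batch the log2 fold change was 0.56 and still past the threshold (edgeR adjusted p = 0.00108). The call was lost in 4 of 11 alternatives: DESeq2 (adjusted p = 0.142), DESeq2 with a local dispersion trend (0.0932), edgeR with robust dispersion (0.122) and edgeR without the block (0.973); over all 11 the adjusted p ran from 4.09e-09 to 0.973. The RPKM of Ptges relative to Hpgd, the synthase against the degrading enzyme, was 1.28, 0.928 and 0.704 in iASPP-KO and 0.884, 0.738 and 1.17 in iASPP-WT. That ratio was higher in iASPP-KO in batches 1 and 2 and lower in batch 3 (exact two-sided sign-flip p = 1 over 3 pairs).

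**Figure D2:**
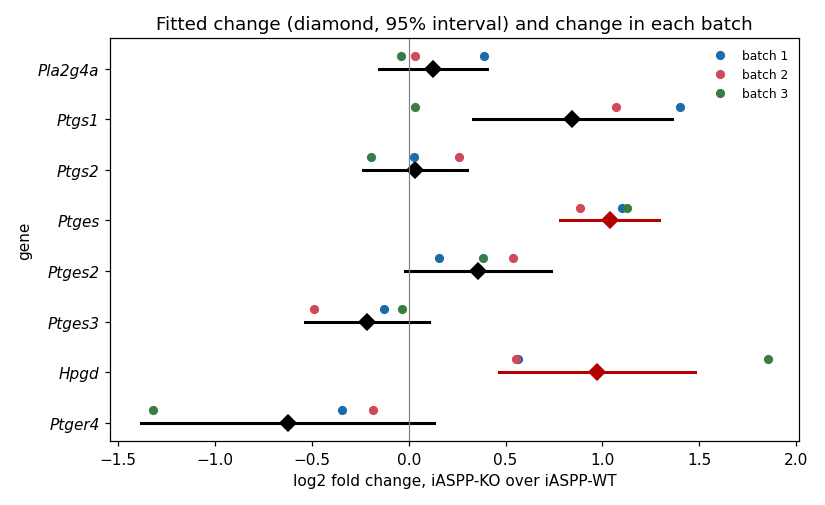
Log2 fold change of iASPP-KO over iASPP-WT for the 8 tested members; diamonds are fitted values with 95% intervals (red: adjusted p under 0.05), and circles the difference within each batch. The 3 circles of Ptges lie between 0.88 and 1.13, while those of Ptgs1 and Hpgd are spread by batch 3.

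The receptors were the members with the lowest levels. Ptger4, a receptor that raises cyclic AMP, lies on the minus strand at chr15:5206661-5244187 and had 85, 114 and 89 counts in iASPP-KO and 103, 142 and 215 in iASPP-WT. The iASPP-WT culture of batch 3 was highest, the groups overlapped, and the iASPP-KO culture was the lower in CPM in 3 of 3 batches, with log2 differences of -0.34, -0.18 and -1.32. The log2 fold change of -0.63 ± 0.34 (SE, 3 pairs) did not pass the threshold (edgeR adjusted p = 0.408), and without batch 3 it was -0.27. Ptger2, a second receptor of this kind on the plus strand at chr14:44988195-45003820, had 0, 0 and 5 counts in iASPP-KO and 8, 0 and 3 in iASPP-WT. It was at or near the floor of 3 counts in most libraries, and no difference was detectable at this depth.

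Per length, the order of the members by mean RPKM over the 6 libraries was Ptgs2 (98.3), Hpgd (39.0), Ptges (36.5), Ptges3 (19.5), Pla2g4a (14.9), Ptgs1 (9.70), Ptges2 (4.31), Ptger4 (0.825) and Ptger2 (0.0231). Ranges over the libraries overlapped for each pair of neighbours from Ptgs2 down to Ptges2. Within a library Ptgs2 was nevertheless above Hpgd in 6 of 6 cases, whereas Hpgd was above Ptges in 4 of 6. Ptger4 and Ptger2 were separated from the gene before them, with no overlap. The lengths are those of all annotated exons together, so a gene expressed from a short transcript is understated.

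For several members the batches differed more than the groups did. Between the lowest and the highest batch mean in CPM, Ptgs2 differed 3.49-fold, Ptges 2.35-fold, Ptgs1 2.25-fold, Hpgd 2.17-fold and Pla2g4a 2.05-fold, against 1.33-fold for Ptges3. The tested genes whose log2 CPM followed Ptgs2 most closely over the 6 libraries were Borcs8, Inpp5a, Fndc3b, Tnfaip1 and Plet1, with Pearson r from 0.995 down to 0.981 among 8774 genes with a mean of at least 10 CPM. Those closest to Hpgd were Map1lc3b, Tprn, Dusp3, Xpnpep1 and Tmem41b, with r from 0.995 to 0.992. These 6 points share 3 batches, and none of the 10 genes was called between the groups; the lowest adjusted p among them was 0.234 (edgeR).

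Markers were read beside the members, because other cells of the skin also make these enzymes. Krt14 and Krt5, the keratins of basal keratinocytes, had the highest levels of all markers read, and the 7 basal markers summed to between 22870 and 27420 CPM. The 7 fibroblast markers summed to 37.2, 51.9 and 459.4 CPM in iASPP-KO and to 34.2, 45.3 and 675.6 in iASPP-WT, so both batch 3 cultures stood apart. Col1a2, the most abundant of them in batch 3, had 4188 counts in iASPP-KO and 5545 in iASPP-WT there. Of the 7, Col1a2 (log2 fold change -0.55, edgeR adjusted p = 0.0428) and Col3a1 (-0.87, 0.0269) fell in iASPP-KO. Over all tested genes edgeR called 1.95% lower. Pdgfra, the most abundant fibroblast marker of iASPP-KO in batches 1 and 2, went the other way in those batches: it had 366, 543 and 849 counts in iASPP-KO and 141, 195 and 1083 in iASPP-WT, with a log2 fold change of 0.81 that did not pass (edgeR adjusted p = 0.258). The part of fibroblast RNA in the Hpgd and Ptgs1 values of batch 3 was not tested; without that batch the log2 fold change of Ptges was 0.99, that of Hpgd 0.56 and that of Ptgs1 1.23. In bulk RNA, fewer cells of a type and less RNA per cell cannot be told apart.

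The suprabasal list, 6 markers of differentiating keratinocytes, summed to 2576, 2025 and 774.7 CPM in iASPP-KO and to 2400, 1829 and 611.4 in iASPP-WT, lowest in batch 3, as Ptgs2, Ptges and Hpgd were. In this list Sbsn rose (log2 fold change 0.67, edgeR adjusted p = 0.00864) and Krt10 fell (-1.31, 0.033). Over all tested genes edgeR called 2.17% higher and 1.95% lower. Sbsn had 1070, 1455 and 563.5 CPM in iASPP-KO and 630.6, 942.3 and 367.8 in iASPP-WT. Of the others, Ivl (0.62) and Lor (0.32) were positive and Krt1 (-0.31) and Dsg1a (-0.74, edgeR adjusted p = 0.0558) negative, none past the threshold. DESeq2 called 2 of the 6 higher and 1 lower, against 3.91% and 3.31% of the genes it tested. The 5 melanocyte markers, led by Pmel, Tyrp1 and Dct, summed to between 353.0 and 1088 CPM with none called by edgeR or DESeq2 and none at an unadjusted p under 0.05. The 6 leukocyte and macrophage markers summed to 64.8, 69.8 and 79.7 CPM in iASPP-KO and 43.5, 59.0 and 63.6 in iASPP-WT. Batch 3 stood apart here too: Lyz2 led the list there with 1392 and 1113 counts, against 27 to 108 in the other batches, where Cd68 led, while Cd68 and Csf1r were lowest in batch 3. Csf1r rose in this list (log2 fold change 1.11, edgeR adjusted p = 0.0206), from 194, 368 and 43 counts to 415, 641 and 123. It was the 1 call among 5 tested genes of the list, where edgeR called 2.17% of all tested genes higher. Adgre1, which encodes the macrophage marker F4/80, had 0 to 54 counts. Langerhans cell markers summed to at most 2.93 CPM, with all 3 at 0 counts in the iASPP-WT cultures of batches 1 and 2. Of the mast cell markers, Kit, which melanocytes also express, led every library, Fcer1a had no counts, and Cpa3, Mcpt4 and Tpsb2 had at most 22 counts in any library. The 3 endothelial markers summed to 5.84, 11.99 and 2.34 CPM in iASPP-KO and 2.16, 5.17 and 4.41 in iASPP-WT. None was called by edgeR or DESeq2. Within batches the log2 differences were 1.68, 1.64 and -1.06 for Kdr and 1.12, 0.95 and -0.79 for Pecam1, beside 1.40, 1.07 and 0.03 for Ptgs1. These rest on low counts, 14 to 135 for Kdr and 27 to 132 for Pecam1. Cdh5, the third endothelial marker, had 2, 0 and 0 counts in iASPP-KO and 1, 6 and 0 in iASPP-WT, too few to show a pattern. The part of these cells in the members' values was not tested.

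**Figure D3:**
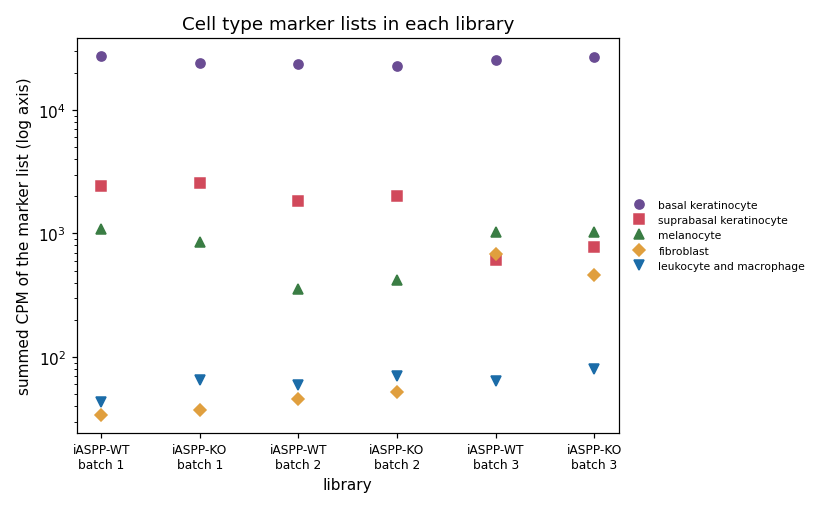
Summed CPM of 5 marker lists (log axis) in each library, with the cultures of a batch side by side. Fibroblast markers are at 459.4 and 675.6 CPM in batch 3 and at most 51.9 in the other batches, and basal keratinocyte markers lie at 22870 or above in all 6 libraries.

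Beyond the members, 59 other genes listed with eicosanoid metabolism were followed, of which 43 were tested. Cyp4f39 was called higher and Slco3a1 lower, 1 gene in each direction with edgeR and with DESeq2, which is near the 2.17% and 1.95% of all tested genes that edgeR called. The median log2 fold change was 0.22, against 0.01 over all tested genes. Without batch 3, 8 genes of the list were called higher and 3 lower, in a fit that called 5.2% of all tested genes higher and 4.34% lower. Cyp4f39, a fatty acid hydroxylase of the epidermal barrier, had 5824, 5604 and 1169 counts in iASPP-KO and 2820, 4444 and 730 in iASPP-WT. Its log2 fold change was 0.68 ± 0.13 (SE, higher in 3 of 3 pairs; edgeR adjusted p = 0.0181), and without batch 1 it was not called (adjusted p = 0.114; range over alternatives 3.22e-07 to 0.978). Slco3a1, an organic anion transporter that can carry prostaglandins, had 1157, 707 and 700 counts in iASPP-KO and 1577, 1240 and 940 in iASPP-WT. It fell by 0.56 on the log2 scale, lower in 3 of 3 pairs (edgeR adjusted p = 0.0401), and was not called without batch 1 (0.181) or without batch 2 (0.263; range over alternatives 8.46e-05 to 0.973).

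Among the 14 tested genes of the phospholipase list, which also holds the regulators Anxa1 and Plaa, none was called by edgeR as planned or by DESeq2, with 1 lower (Pla2g2f) and 0 higher at an unadjusted p under 0.05, against 8.09% and 8.66% of all tested genes. Anxa1, an inhibitor of phospholipase that glucocorticoids induce, had the highest level of that list, 813.1 ± 193.1 RPKM in iASPP-KO against 688.6 ± 90.6 in iASPP-WT (SD, 3 cultures each). The secreted phospholipase Pla2g2f of the epidermis had 1832, 719 and 256 counts in iASPP-KO and 2078, 1546 and 1079 in iASPP-WT, with a log2 fold change of -1.09 (edgeR adjusted p = 0.0602) and within-batch values of -0.25, -0.97 and -2.13. Pla2g2f was called lower in 6 of 11 alternatives, all edgeR: RLE factors, upper-quartile scaling, both count filters, and without batch 1 (log2 fold change -1.54) or batch 3 (-0.61); its adjusted p ran from 4.27e-10 to 0.977. Plaa and Pla2g4f had log2 fold changes of 0.03 and 0.39.

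The remaining lists of eicosanoid genes held few calls. Of 7 tested terminal synthases for other prostanoids none was called by edgeR or DESeq2. At an unadjusted p under 0.05, 2 were higher, Cbr1 and Akr1c18, and 0 lower (8.66% and 8.09% of all tested genes). Akr1c18, named after its values were seen, had 109, 108 and 124 counts in iASPP-KO and 0, 42 and 55 in iASPP-WT. Prxl2b, Akr1b8, Hpgds and Cbr1 were the most abundant, at mean RPKM of 41.5, 16.2, 13.2 and 7.99, and had log2 fold changes of 0.31, 0.14, 0.24 and 0.48. Hpgds, a prostaglandin D synthase known from mast cells, had counts in every library. No mast cell marker other than Kit had over 22 counts, and the cells that made the Hpgds RNA were not tested. In transport and inactivation, Slco3a1 was the 1 call among 6 tested genes, against 1.95% of all tested genes called lower, and 2 were lower and 0 higher at an unadjusted p under 0.05, Slco3a1 and Slco2a1. Ptgr1, Ptgr2 and Abcc4 had log2 fold changes of -0.07, 0.23 and 0.26. Of 5 tested prostanoid receptor genes outside the members, among them the prostaglandin E receptors Ptger1 and Ptger3, none was called by edgeR or DESeq2 or at an unadjusted p under 0.05, and only Ptgfrn, a regulator of the prostaglandin F receptor, exceeded a mean of 1 RPKM, at 20.1; Ptgir, Ptgfr and Ptger3 were at 0.36 or less. The list of lipoxygenases and leukotrienes also held Cyp4f39, the barrier hydroxylase described above. Cyp4f39 was the 1 call among its 11 tested genes, against 2.17% of all tested genes called higher, and no other gene of that list was called. At an unadjusted p under 0.05, 1 was higher and 2 lower, Lta4h and Ltb4r1; Lta4h (-0.38), Alox12b (0.54) and Ltb4r2 (-0.11) did not pass the adjusted threshold.

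**Figure D4:**
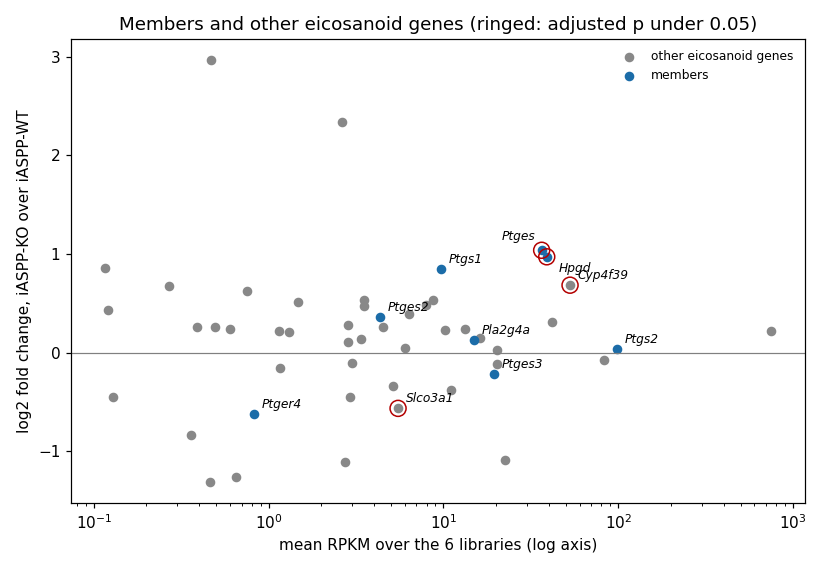
Log2 fold change of iASPP-KO over iASPP-WT against mean RPKM (log axis) for the 8 tested members and 43 tested eicosanoid genes; rings mark adjusted p under 0.05. Ptges and Hpgd are ringed near 1 on the vertical axis, Cyp4f39 at 0.68 and Slco3a1 at -0.56, and Ptgs2 lies at 0.03.

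Lists tied to single members were read in the same way. Of 12 tested genes of the HSP90 machinery in which p23 (Ptges3) works, the chaperones HSP90 and HSP70 included, none was called by edgeR or DESeq2, with 3 lower and 0 higher at an unadjusted p under 0.05 (8.09% and 8.66% of all tested genes) and a median log2 fold change of -0.13. Hsp90ab1, Hspa4, Stip1 and Fkbp4 were the most abundant by RPKM, with log2 fold changes of -0.03, -0.09, -0.27 and -0.20, beside -0.22 for Ptges3. Read windows shared with other genes were not checked for this list, so its order of levels is less certain. The 3 lower at an unadjusted p under 0.05 were Stip1, Fkbp5 (-0.92) and Hspa8 (-0.44). Of the 12, 6 were below the partner in all 3 batches and 1 above, against 19.7% and 19.5% of all tested genes. Of 8 tested proteins that bind the AU-rich Ptgs2 mRNA none was called by edgeR or DESeq2 or at an unadjusted p under 0.05. Zfp36, which speeds the decay of such mRNAs, had a log2 fold change of 0.50 (edgeR adjusted p = 0.31), and Khsrp, Zfp36l2 and Elavl1 had -0.25, -0.02 and -0.07.

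Inflammatory genes of keratinocytes were read beside Ptgs2 and Ptges. Of 11 in the list, 9 were tested and 6 rose, where 2.17% of all tested genes were called higher: S100a8, S100a9, Ccl20, Cxcl1, Il1a and Il1f6, the last also called Il36a (edgeR adjusted p from 0.00109 to 0.00282). Their log2 fold changes ran from 0.96 for Il1a to 2.13 for Ccl20, beside 1.04 for Ptges and 0.03 for Ptgs2. Il1rn, Tnf and Cxcl2 did not pass, and no difference between these genes and Ptgs2 was tested. None of the 9 was lower at an unadjusted p under 0.05 or by DESeq2. This list was chosen with earlier results of these data known, and its direction is no independent evidence.

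**Figure D5:**
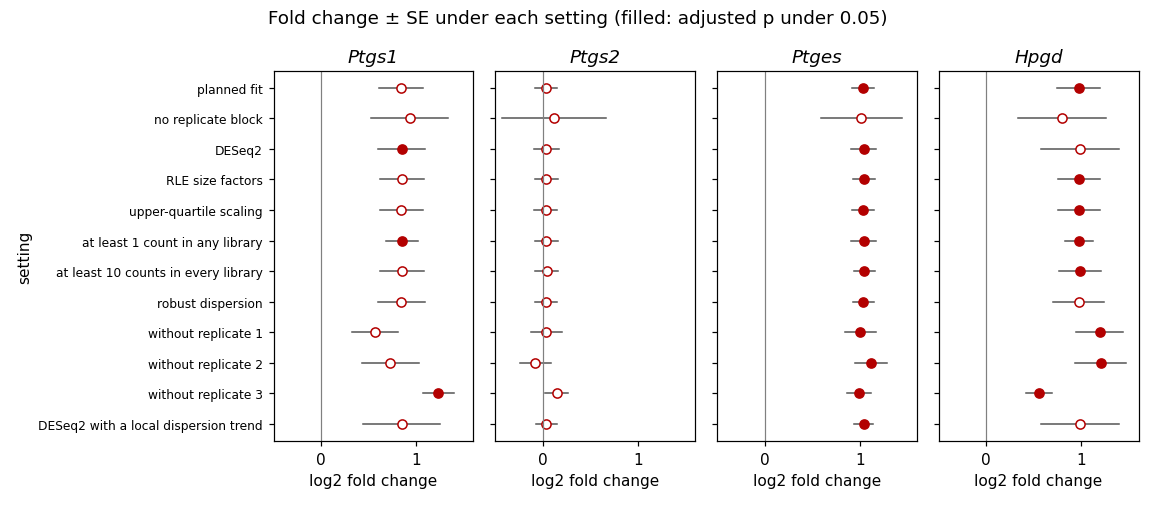
Log2 fold change ± SE of Ptgs1, Ptgs2, Ptges and Hpgd under the planned fit and 11 alternatives; filled circles have an adjusted p under 0.05. Ptges keeps positive values near 1 under the alternatives and loses its call only without the block, Hpgd and Ptgs1 cross the threshold in several, and Ptgs2 stays between -0.08 and 0.15.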

How the data were processed

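Total RNA depleted of ribosomal RNA was sequenced as single 42-base reads. Per the submitters' processing notes, reads were checked with FastQC 0.11.9, trimmed with cutadapt 2.10, aligned with STAR 2.7.3 to mm10 and counted with featureCounts 2.0.0; the file header names strand setting 2 and GENCODE vM25. The authors deposited these as raw counts per gene, which were used as they stand; 0 further per-sample columns were found. A table of the authors' own comparison, with fold changes and p-values, was not used. The labels give tamoxifen in mM (1 per label) and the methods of the study in another unit; the concentration is not settled here.

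Counts were fitted with edgeR (glmQLFit and glmQLFTest, TMM scaling, filterByExpr by group, batch and group as terms) over all 14916 genes that passed the filter, with Benjamini-Hochberg adjustment and a threshold of 0.05. The SE was taken as the size of the log2 fold change over the root of its F statistic. Within-batch values use log2 CPM with a prior count of 2, and CPM and RPKM use TMM-scaled library sizes, RPKM also the deposited exon length. Batch served as the replicate block: the labels pair the cultures by batch, and deviations from the group means of same-batch cultures correlated at 0.30, 0.37 and 0.57. Across batches 1 and 2 the values were 0.18 and 0.09, and between batch 3 and the others -0.43 to -0.29, so batch 3 was the most distinct. Libraries of a group differed by 40.1 to 168.8 chi-square units per gene, beyond sampling noise near 1, so no library was a copy of another in its group; this does not show that the batches are independent animals.

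The members and lists were chosen with earlier results of these data known. Named were every member, Ppp1r13l, each list's called genes and up to 4 of highest RPKM, and the 5 genes most like Ptgs2 and Hpgd. Pdgfra, Fcer1a, Ptger1, Il1rn, Tnf, Cxcl2, Akr1c18, Slco2a1, Ltb4r1, Ivl, Lor, Fkbp5 and Hspa8 fall outside this rule and were named after their values were seen. Symbols were matched directly, by an older symbol, or by RefSeq synonym (Il1f6 for Il36a). Shared 42-base windows were sought in GENCODE vM21 transcripts, for the members only. Alternatives were no block, DESeq2, RLE or upper-quartile scaling, filters of at least 1 count in any or 10 in every library, robust dispersion, each batch left out and, chosen after seeing the data, DESeq2 with a local trend. A planned comparison of the Ptgs1 and Ptgs2 protein sequences was not run.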

Additional observations from a re-analysis of the deposited data

How the results depend on the processing

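Without the replicate block, which ignores the pairing by batch, edgeR called no gene in either direction (691 at an unadjusted p under 0.05; DESeq2 with the block called 480 higher and 407 lower): 0 of all genes higher and 0 lower, 0 members, and 0 of the wider eicosanoid list higher and 0 lower, against 323 and 291, 2, 1 and 1. Members called higher numbered 1 with robust dispersion and 1 with DESeq2 with a local dispersion trend; leaving out 1 batch gave 2 to 3, and the filter of 1 count in any library 3. No alternative called a member lower. All genes called higher and lower numbered 624 and 491 with a filter of 1 count in any library and 961 and 874 with the local trend; leaving out 1 batch gave 169 to 793 higher and 117 to 662 lower, the highest of each without batch 3. Of the wider list, 2 were higher and 2 lower with the filter of 1 count and 2 and 3 with the local trend; 2 were lower with RLE factors, with upper-quartile scaling and with the filter of 10 counts in every library. Leaving out 1 batch gave 0 to 8 higher and 0 to 3 lower. Some of these settings also differ in the samples used or the number of genes tested, and the causes of the shifts were not tested.

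Pla2g4a, Ptgs2, Ptges2, Ptges3 and Ptger4 were called under none of the 11 alternatives. The Ptgs2 change was -0.08 without batch 2 and positive in the other 10. Ptges was called in 10, Hpgd in 7 and Ptgs1 in 3, all with positive values. Fits without 1 batch have 1 residual degree of freedom. Depth limits statements on Ptger2 and, less so, Ptger4.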
